A study of Homo sapiens with 2 samples.

Results

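This section describes the genes of the chromatin remodelling complexes in HCT116, a widely used human colorectal carcinoma cell line. The 44 genes were chosen by name from the SWI/SNF, CHD/NuRD, ISWI and INO80/SRCAP families, with the histone deacetylase genes HDAC1, HDAC2 and HDAC3 and with ATRX. All 44 had a probe set carrying that gene symbol alone, out of 19775 such genes on the array. One sample had been transfected with a control siRNA and the other with siRNAs against JMJD1A and JMJD1B, now named KDM3A and KDM3B (called the double-siRNA array here), and total RNA was taken 2 days later. Both samples were the same cell line, transfected with the RNAimax reagent, and nothing in the labels tells whether several siRNAs per gene were used. Each condition was 1 array, so no difference below has a replicate check, a test or a p-value, and each compares these 2 hybridizations and not the conditions. In RNA from whole cultures, a lower level per cell and a smaller share of cells holding the transcript cannot be told apart.

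Chromatin remodellers are ATP-driven machines that slide, evict or exchange nucleosomes. SWI/SNF (BAF and PBAF) is built on the ATPase SMARCA4 or SMARCA2 and opens regulatory DNA. NuRD joins the ATPase CHD4 or CHD3 to the deacetylases HDAC1 and HDAC2, the MTA scaffolds and the methyl-CpG-binding proteins MBD2 or MBD3. ISWI complexes space nucleosomes with SMARCA5 or SMARCA1 and a large partner such as BAZ1A, BAZ1B, BAZ2A or BPTF. INO80, SRCAP and p400 share the AAA+ proteins RUVBL1 and RUVBL2 and handle the histone variant H2A.Z. KDM3A and KDM3B are demethylases acting on lysine 9 of histone H3.

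Upstream sequences are shown for the members at least 2-fold lower that have a single RefSeq start, SMARCA5, BAZ1B and MBD2. SMARCA1 was added as the ISWI ATPase that was not lower in the deposited values. Of the 44 members, 35 had an entry. BAZ1A had none, and ARID1B had 2 starts. Each run is the 250 bases before the listed start, 5′ to 3′ on the gene's strand, from RefSeq on GRCh38.p14. SMARCA5 lies at chr4:143513452-143513701 (plus strand), BAZ1B at chr7:73522294-73522543 (minus), MBD2 at chr18:54224670-54224919 (minus) and SMARCA1 at chrX:129523491-129523740 (minus). Capitals mark exact matches, on either strand, to any of 5 motifs, namely the E-box CACGTG, the ETS motif CCGGAAG, the E2F motif GCGGGAA, the NRF1 core TGCGCA and the NF-Y box CCAAT.
SMARCA5: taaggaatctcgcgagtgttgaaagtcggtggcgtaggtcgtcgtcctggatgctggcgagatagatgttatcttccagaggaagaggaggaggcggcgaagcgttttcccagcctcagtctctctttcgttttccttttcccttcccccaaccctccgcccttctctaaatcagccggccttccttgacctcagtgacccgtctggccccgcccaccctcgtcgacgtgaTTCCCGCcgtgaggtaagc
BAZ1B: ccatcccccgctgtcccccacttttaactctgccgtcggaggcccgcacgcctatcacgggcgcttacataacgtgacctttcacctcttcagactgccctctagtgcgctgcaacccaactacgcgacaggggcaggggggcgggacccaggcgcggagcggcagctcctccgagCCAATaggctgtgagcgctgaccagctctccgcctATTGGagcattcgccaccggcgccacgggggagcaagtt
MBD2: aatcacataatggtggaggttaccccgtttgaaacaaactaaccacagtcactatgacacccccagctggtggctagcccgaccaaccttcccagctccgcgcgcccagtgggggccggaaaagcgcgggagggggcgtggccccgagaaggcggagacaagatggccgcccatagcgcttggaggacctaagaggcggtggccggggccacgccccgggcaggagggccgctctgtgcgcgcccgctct
SMARCA1: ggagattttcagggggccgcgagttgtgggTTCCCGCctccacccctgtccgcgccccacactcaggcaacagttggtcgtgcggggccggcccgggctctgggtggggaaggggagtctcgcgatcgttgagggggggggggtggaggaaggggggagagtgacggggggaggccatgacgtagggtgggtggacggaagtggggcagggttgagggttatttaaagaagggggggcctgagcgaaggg

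No motif was common to the 3 lower genes. The SMARCA5 and SMARCA1 windows each held 1 E2F match, the BAZ1B window held 2 NF-Y boxes, and the MBD2 window held none of the 5. Across all 35116 listed windows of this length, 5.52% held the E2F motif, 32.0% the NF-Y box, 6.34% the E-box, 8.52% the ETS motif and 6.89% the NRF1 core. Over the 52 windows of members, some with several starts, the E2F, ETS and NRF1 shares were each 11.5% (6 windows), the NF-Y share 32.7% and the E-box share 3.85%. A match describes these letters only.

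Values are signals in MAS5 units. Each gene is given by its brightest probe set, the one with the highest log2 signal averaged over the arrays. A positive log2 ratio means a higher signal on the double-siRNA array, as deposited. A gene was taken as measured if that average reached 50.4 in signal, the median over probe sets other than controls, which 12561 genes did. All 44 members passed, and the lowest member signal on either array was 74.0. The only spread available was that between probe sets of one gene. Expressed as the SD of the log2 ratio of 1 probe set, it was 0.54 over the 6192 genes that had at least 2 measured, and 0.49 over the 35 such members. That SD says nothing of the spread between cultures.

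The siRNA targets were read first. KDM3B read 3031 on the control array and 496 on the double-siRNA array, so 16.4% was left, while KDM3A read 3884 and 3323, with 85.6% left. On the deposited scale, the array labelled for both siRNAs thus showed clearly less KDM3B signal and nearly as much KDM3A signal. The KDM3A reading rests on 1 measured probe set, and a dim one under the filter (16.9 and 9.18) had 54.2% left. The epithelial markers EPCAM (13794 and 19809), KRT8 and KRT18 were bright on both arrays, while the intestinal marker CDX2 was dim (108 and 78.2) and CDH17 was below the filter. Of the 7 measured colon markers 1 differed 2-fold, CDH1 (4670 and 10081, 2.16-fold higher), and KRT20 read 307 and 154 (-0.99). Of markers for other cell types, few passed the filter (2 of 9 fibroblast, 3 of 8 leukocyte and 1 of 7 endothelial genes), the brightest being COL1A1 at 324 and 631, and their part in any result was not tested. The 18 hybridization control probe sets, which report spiked transcripts, read higher on the double-siRNA array in every case, the median log2 ratio being 0.61. If the arrays were set level on them, every log2 ratio given here would be lower by that amount.

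Most remodelling genes read lower on the double-siRNA array, by modest amounts. Of the 44 members, 35 had a ratio below 0 (79.5%, against 47.9% of all measured genes), and their median log2 ratio was -0.43 against 0.04 for all measured genes. At 2-fold, 5 members were lower and 0 higher, beside 8.53% of all measured genes lower and 8.91% higher. The 5 were SMARCA5, ARID1B, MBD2, BAZ1B and BAZ1A. The share of members lower at 2-fold (11.4%) was near the background, and the gap was wider at 1.5-fold and at 3-fold. At 1.5-fold, 18 members (40.9%) were lower against 19.5% of all genes, and 2 (4.55%) were higher against 21.7%, namely MTA3 and HDAC3. At 3-fold, 4 of the 44 members were lower and 0 higher, beside 2.26% and 2.28% of all genes, though 4 is a small count. ARID1A, at -0.99, stood just inside the 2-fold line, and BAZ1A, at -1.26, was the nearest beyond it.

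**Figure D1:**
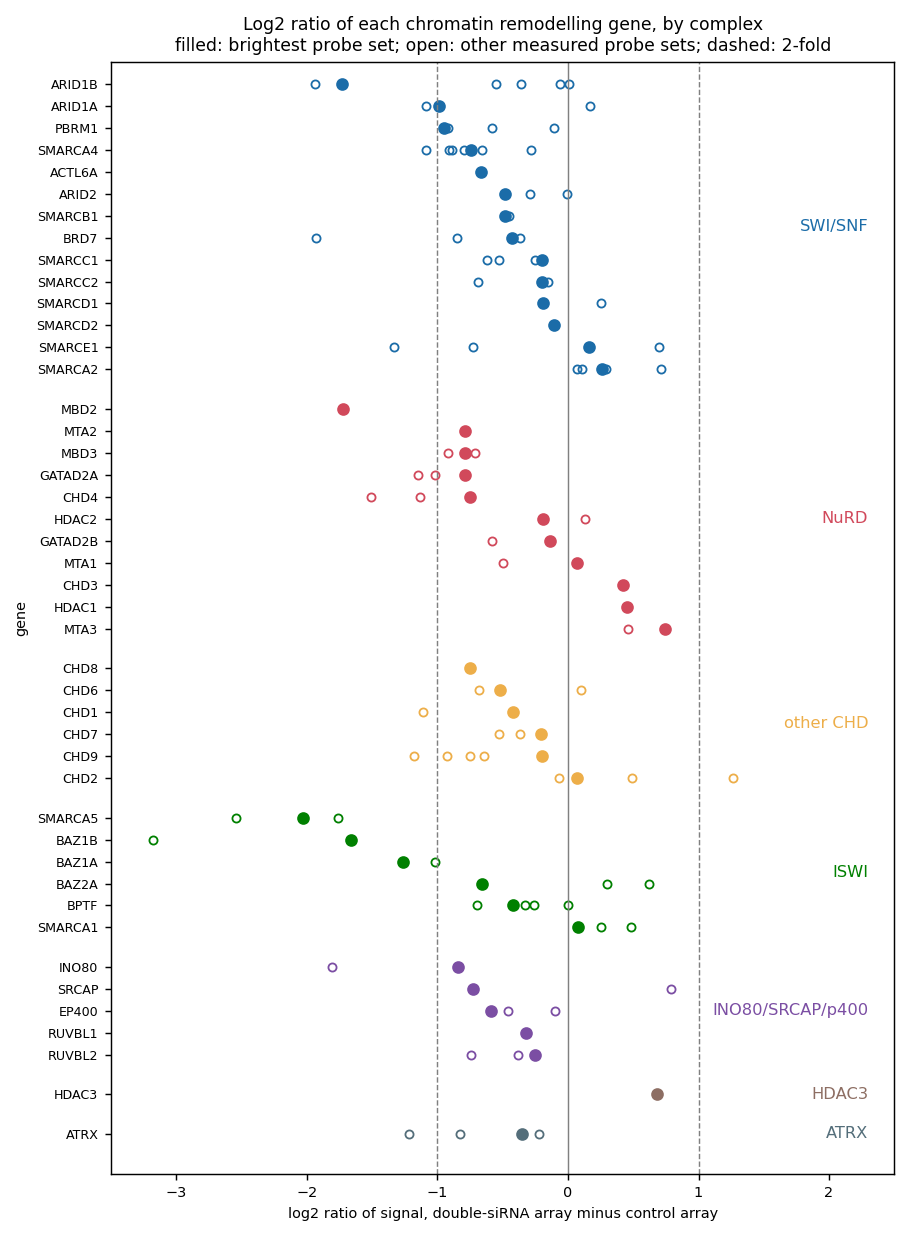
Log2 ratio (double-siRNA array minus control array, x axis) of each of the 44 genes (y axis), grouped by complex, with the brightest probe set filled and the other measured probe sets open. Of the filled points 35 lie left of 0, and 5 lie beyond the dashed 2-fold line on the left.

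The ISWI genes held 3 of the 5 members past 2-fold, in a family of 6, with a median log2 ratio of -0.96. SMARCA5 (SNF2H), the ATPase of most ISWI complexes in dividing cells, read 3945 on the control array and 966 on the double-siRNA array, 4.08-fold lower (log2 ratio -2.03). Its other probe sets stood at -2.54 and -1.76, so all 3 lay well below 0. BAZ1B (WSTF), which joins SMARCA5 in the WICH complex at replication sites, read 2863 and 906, 3.16-fold lower, with its second probe set at -3.18 (275 and 30.3). BAZ1A (ACF1), the partner of SMARCA5 in the nucleosome-spacing complexes ACF and CHRAC, read 3599 and 1498, 2.40-fold lower, with its second probe set at -1.02. SMARCA5, BAZ1B and BAZ1A were the 3 members with at least 2 measured probe sets of which every one was 2-fold lower. No share over all genes was taken for this count. The second BAZ1B probe set passed the filter of 50.4 only through its control signal, being at 30.3 on the double-siRNA array. The BAZ1B probe sets under the filter stood at -0.72 and -0.30.

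The remaining ISWI genes differed less. SMARCA1 (SNF2L), the other ISWI ATPase, read 1743 and 1837, a log2 ratio of 0.08, and its 3 measured probe sets ranged from 0.08 to 0.48. BPTF, the large subunit of the NURF complex that pairs with SMARCA1, read 2903 and 2163, a log2 ratio of -0.42. The ATPase and the partners of ACF and WICH were thus low together, while the brightest probe sets of the NURF pair stayed within the probe-set SD of 0.54. BAZ2A (TIP5), which recruits SMARCA5 to ribosomal genes in the NoRC complex, gave no settled direction, with the chosen probe set at -0.66 (450 and 284) and the dimmer ones at 0.30 and 0.62. The 5 further ISWI genes had a median of 0.20, with 3 above 0, 1 at least 2-fold higher and 0 lower. CECR2, a partner of SMARCA1, read 247 and 820, 3.32-fold higher (second probe set 0.85), BAZ2B was at 0.31 and RSF1 at 0.20, the highest of its 6 probe sets, whose mean was -0.15. POLE3 and CHRAC1, the histone-fold subunits of CHRAC, stood at -0.74 and -0.71.

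**Figure D2:**
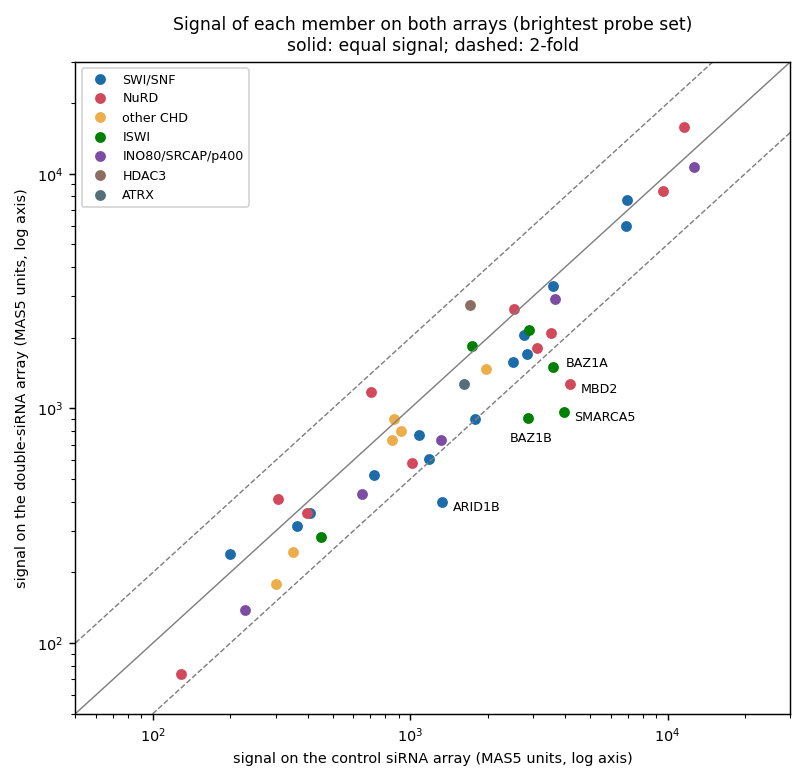
Signal of each member's brightest probe set, control array on the x axis and double-siRNA array on the y axis, both in MAS5 units on log axes, coloured by complex. The 5 labelled genes lie below the lower dashed 2-fold line, SMARCA5 at 3945 and 966, and no gene lies above the upper one.

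The SWI/SNF genes were mostly a little lower, with 12 of 14 below 0 (85.7%, against 47.9% of all measured genes) and a median of -0.46. At 2-fold, 1 member was lower (7.14%, near the 8.53% of all measured genes) and 0 higher (8.91% of all). SMARCA4 (BRG1), one of the alternative ATPases, read 2854 and 1708, a log2 ratio of -0.74, and its 7 measured probe sets all lay below 0, from -1.09 to -0.28. SMARCA2 (BRM), the other ATPase, read 199 and 239, a log2 ratio of 0.26, and its 5 measured probe sets all lay above 0, from 0.07 to 0.71. The ATPase genes of this complex therefore differed in sign on the deposited scale, in every measured probe set. With the arrays level on the hybridization controls SMARCA2 would also be below 0, at -0.35.

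The subunits that set the type of SWI/SNF complex included the lowest SWI/SNF ratios. ARID1B, a DNA-binding subunit of BAF, read 1325 and 400, 3.32-fold lower by its brightest probe set. Its 6 measured probe sets disagreed, from -1.94 to 0.01, with a mean of -0.77, so the 2-fold difference rests on the probe set chosen. ARID1A, the alternative to ARID1B in BAF, read 1784 and 897 (log2 ratio -0.99), with the others at 0.17 and -1.09. PBRM1, the bromodomain subunit that defines PBAF, read 1179 and 609 (-0.95), and its 4 measured probe sets lay between -0.95 and -0.11. The other PBAF genes were closer to level by their brightest probe sets, ARID2 at -0.48 and BRD7 at -0.43, although dim BRD7 probe sets stood at -0.85 and -1.93. By the mean of probe sets BRD7 (-0.90) was lower than PBRM1 (-0.64), so their order depends on the probe-set rule.

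Of the core genes of SWI/SNF, 5 lay between -0.48 and -0.11 by their brightest probe sets. SMARCB1 was at -0.48, SMARCC1 and SMARCC2, the paired scaffold proteins, were both at -0.20, SMARCD1 was at -0.19 and SMARCD2 at -0.11. ACTL6A, an actin-related protein that INO80 and p400 complexes also hold, read 2512 and 1579 (-0.67) on its only probe set. SMARCE1, the HMG-box subunit, read 6945 and 7741 (0.16), but its 4 probe sets ranged from -1.33 to 0.70. Among 12 measured further SWI/SNF genes, 0 differed 2-fold in either direction, their median was 0.03, and the largest difference was that of SMARCD3 at 0.92.

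The NuRD genes went both ways, with 7 of 11 below 0 (63.6%, against 47.9% of all measured genes) and a median of -0.19. At 2-fold, 1 member was lower (9.09%, near the 8.53% of all measured genes) and 0 higher (8.91% of all). MBD2, which binds methylated CpG and brings NuRD to methylated DNA, read 4173 and 1267, 3.29-fold lower, on its only measured probe set. The 3 probe sets of MBD2 under the filter stood between -1.50 and -0.27. MBD3, the alternative to MBD2 that does not bind methylated DNA selectively, read 1012 and 584 (-0.79), with its 3 probe sets between -0.92 and -0.71. Both alternative MBD genes were therefore lower, MBD2 more so.

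CHD4, the main NuRD ATPase, read 3524 and 2101 by its brightest probe set (-0.75), while a nearly equally bright one read 3821 and 1340 (-1.51) and the third stood at -1.13. By the mean of its probe sets, -1.13, CHD4 would count among the members 2-fold lower. CHD3, the alternative ATPase, read 307 and 409 (0.42). GATAD2A, which links the deacetylase and ATPase parts, read 3115 and 1803 (-0.79), with its other measured probe sets at -1.02 and -1.15, and its paralog GATAD2B was at -0.14. NuRD's ATPase CHD4, its linker GATAD2A and both MBD genes were thus low in every measured probe set.

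The deacetylase core and scaffolds of NuRD went both ways. HDAC1 read 11571 and 15794 (0.45), and HDAC2 read 9605 and 8411 (-0.19). Of the MTA scaffolds, MTA1 was level by its brightest probe set (0.07), with a dim second one at -0.50 (86.4 and 61.2). MTA2 was lower (128 and 74.0, -0.79) on its only probe set, a dim one, and stood at -0.52 with a pseudocount of 50. MTA3 was the highest of all members (704 and 1173, 0.74). HDAC3, the deacetylase of the NCoR/SMRT complex, read 1713 and 2749 (0.68) on its only probe set. Among 5 further NuRD genes, the histone chaperone RBBP4, shared with several complexes including Polycomb, read 11268 and 3542, 3.18-fold lower, and all 6 of its measured probe sets were below 0 (-1.88 to -0.44). Of 8 other deacetylase genes, HDAC5 was 2.70-fold higher (185 and 500) with a dimmer probe set at -0.26, and of 8 measured corepressor genes 0 differed 2-fold, GPS2 having the largest difference at -0.79.

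**Figure D3:**
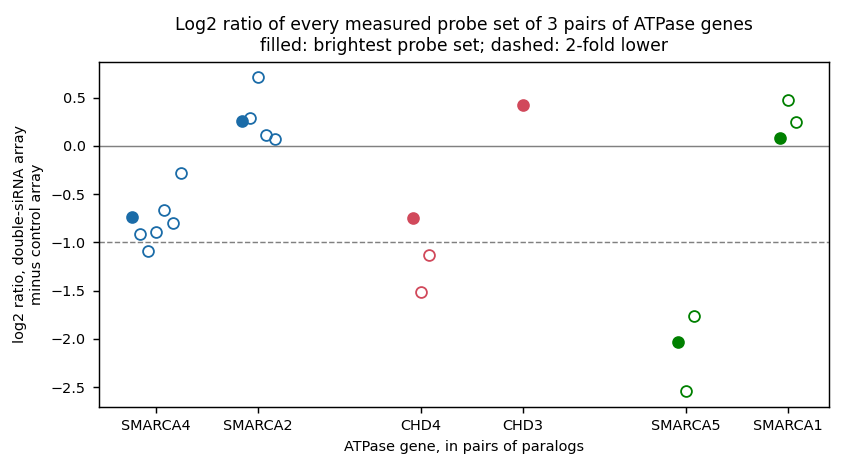
Log2 ratio (y axis) of every measured probe set of the SWI/SNF, NuRD and ISWI ATPase genes, in 3 pairs of paralogs (x axis), with the brightest probe set filled. All 7 SMARCA4, 3 CHD4 and 3 SMARCA5 points lie below 0, and all 5 SMARCA2, 1 CHD3 and 3 SMARCA1 points lie above 0.

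On the deposited scale, in each of these 3 families one ATPase gene was lower and its paralog was not. With the arrays level on the hybridization controls, SMARCA2 (-0.35), CHD3 (-0.19) and SMARCA1 (-0.53) would all be below 0. SMARCA4 and SMARCA2 stood at log2 ratios of -0.74 and 0.26. The difference was -1.16 for CHD4 minus CHD3 and -2.11 for SMARCA5 minus SMARCA1. The measured probe sets of the 2 genes did not overlap in any of these pairs, though CHD3 had only 1. Dim probe sets under the filter stood at -1.21 for CHD3, -1.22 for SMARCA1, and 1.17 and 2.62 for SMARCA2. A difference between log2 ratios on the same arrays does not move when an array is rescaled as a whole, and after loess removal of the trend with signal the differences in these 3 pairs were -0.99, -1.22 and -2.12. For comparison, the probe-set SD of such a difference was 0.76. Of 16 paralog pairs, chosen after the values were seen, 6 exceeded it by the brightest probe sets, these 3 among them, while SMARCC1 and SMARCC2 had equal ratios. This line is only 1 SD, and no share over other gene pairs was taken. MTA2 minus MTA1 and MTA2 minus MTA3, also among the 6, rest on 1 dim MTA2 probe set (128 and 74). Beside the 3 ATPase pairs, which pairs exceeded the SD of 0.76 depended in part on the choice of probe set. By the mean of probe sets MTA2 minus MTA1 was -0.58, inside it, while BAZ1B minus BAZ1A (-1.28), CHD1 minus CHD2 (-1.20) and MTA1 minus MTA3 (-0.81) were past it.

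By their brightest single-gene probe sets, the INO80, SRCAP and p400 genes were all below 0, with a median of -0.59 over 5 members. At 2-fold, 0 of them were lower or higher, beside 8.53% and 8.91% of all measured genes. INO80, the ATPase of its complex, read 1317 and 734 (-0.84), with its second probe set at -1.81. SRCAP, the ATPase that deposits H2A.Z, read 228 and 138 (-0.73) by its brightest single-gene probe set, while a dimmer one (49.8 and 86.1) stood at 0.79. Measured probe sets that also carry the symbol TMEM265, which were not used, stood at 0.04 (203 and 209) and 0.14 (94.1 and 104). The direction of SRCAP was therefore not settled. EP400, the p400 ATPase, read 651 and 432 (-0.59), and its 3 measured probe sets were all below 0. RUVBL1 and RUVBL2, the shared AAA+ pair, were at -0.32 and -0.25, within the probe-set SD of 0.54.

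Of 26 further genes of these complexes, 1 was 2-fold lower and 1 higher (3.85% each), with a median of -0.06. The shares of all measured genes were 8.53% and 8.91%. DMAP1, found in the p400/TIP60 complex, read 602 and 209, 2.89-fold lower, and ZNHIT1, a subunit of SRCAP, read 2445 and 5234, 2.14-fold higher, each on 1 measured probe set.

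The CHD genes outside NuRD stood a little below level, with 5 of 6 below 0 (83.3%, against 47.9% of all measured genes) and a median of -0.31. At 2-fold, 0 were lower or higher, beside 8.53% and 8.91% of all measured genes. CHD8, a remodeller that represses beta-catenin target genes, was the lowest at -0.75 (301 and 178), and CHD2 the highest at 0.07 (861 and 901), with a dimmer CHD2 probe set at 1.26. CHD1, which binds trimethylated lysine 4 of histone H3, read 1975 and 1476 (-0.42), with a second probe set at -1.11. CHD6, CHD7 and CHD9 were at -0.52, -0.21 and -0.20, and the 4 dimmer CHD9 probe sets were all lower than its brightest, down to -1.18. ATRX, which deposits histone H3.3 with DAXX, read 1620 and 1269 (-0.35), with its 4 probe sets between -1.22 and -0.22. Among 9 other SNF2-type ATPases and chaperones, 1 was 2-fold different. HELLS, a remodeller needed for DNA methylation, read 2524 and 810, 3.12-fold lower, and its 5 probe sets ranged from -2.37 to -1.64.

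Probe sets of one gene often differed in size. Of 122 measured member probe sets, 95 lay below 0, 22 were 2-fold lower (18.0%, against 10.4% of all measured single-gene probe sets) and 1 was 2-fold higher (0.820%, against 8.88%). Of the 35 members with at least 2 of them, 22 had all below 0, 3 all above 0 and 10 on both sides. No matching share over all genes was taken for these counts or for the 95, so they describe the members only. SMARCE1, BAZ2A and SRCAP lay beyond 0.5 on both sides. When the probe sets of a gene were averaged, 6 members were 2-fold lower and 0 higher, against 7.84% and 7.79% of all genes, with CHD4 and INO80 added and ARID1B left out.

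**Figure D4:**
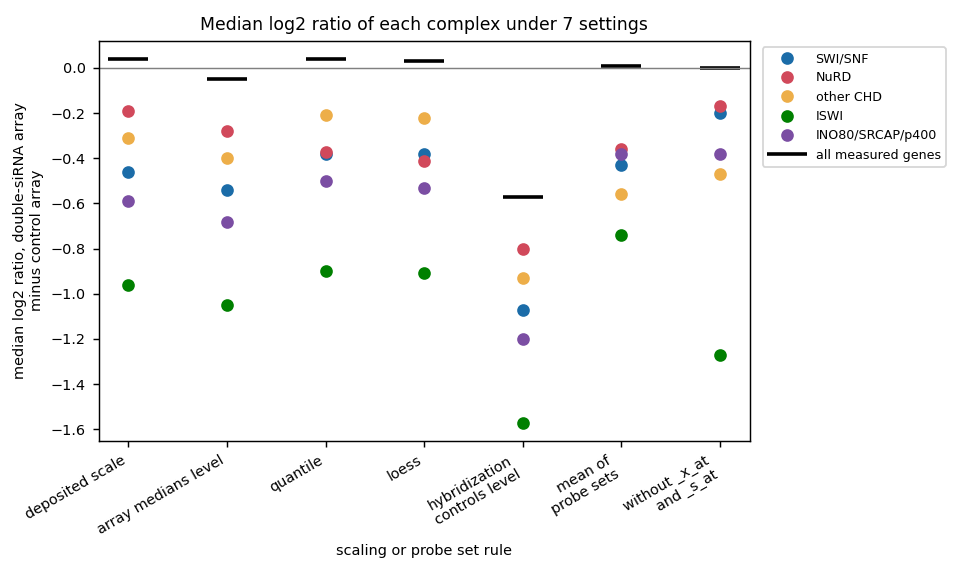
Median log2 ratio of each complex (y axis, coloured points) and of all measured genes (black bars) under 7 settings (x axis). ISWI is the lowest in each setting shown, at -0.96 on the deposited scale, and every complex lies below the bar of all measured genes. Without _x_at and _s_at probe sets, the ISWI median rests on 4 genes with widely differing ratios.

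The order of the complexes below ISWI was not stable. Their medians ran from -0.59 to -0.19 on the deposited scale, and NuRD, the highest there, stood at -0.41 after loess and at -0.36 by the mean of probe sets. ISWI ranged from -1.05 to -0.74 over these settings other than the scale of the hybridization controls and the removal of _x_at and _s_at probe sets. With the arrays level on the hybridization controls, 24 of the 44 members (54.5%) were 2-fold lower and 0 higher, against 27.7% and 2.15% of all genes. Without the ISWI genes, the other 38 members had a median of -0.39, with 2 at least 2-fold lower (5.26%, below the 8.53% of all measured genes).

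Related gene lists gave the context. The 73 measured further subunits, deacetylases and SNF2 ATPases had a median of -0.06, with 57.5% below 0. Of them 3 (4.11%) were at least 2-fold lower and 3 (4.11%) higher, beside 8.53% and 8.91% of all measured genes. The lists within them differed. The 9 SNF2 ATPases and chaperones (median -0.44, 77.8% below 0) and the 5 NuRD genes (-0.30, 80%) were near the members (-0.43, 79.5%). The remaining lists had medians from -0.06 to 0.20. The H3K4 methyltransferase genes had a median of -0.35, with 73.3% below 0, 3 of 15 (20%) at least 2-fold lower and 0 higher. Polycomb and DNA methyltransferase genes had a median of -0.10, with 56.5% below 0, 4 of 23 (17.4%) at least 2-fold lower and 2 (8.7%) higher. Whether the members differ from these lists was not tested.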

How the data were processed

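Total RNA from 2 samples was measured on single-channel oligonucleotide arrays. The authors deposited 1 linear intensity per probe set and array, which MAS5 produced according to the submitters' processing notes. Version and settings are not given in the sources used here. With 2% trimmed from both tails, either array averaged 500.1, as after scaling whole arrays. Of 54613 non-control probe sets, 41091 carried 1 gene symbol, 1801 several and 11721 none in the platform annotation, and only the first were used. All 44 member symbols are current in RefSeq. Log2 was taken without a pseudocount. The number of arrays limits the precision, and no test was run. Members, lists, paralog pairs and motifs were chosen with earlier results of these data known. Genes named are the members, by role, extremes and 2-fold differences, and up to 4 genes per further list past 2-fold, or the 1 with the largest difference. Other genes were named after their values were seen. Alternatives were 4 scalings, a pseudocount, 2 filters, 2 probe-set rules and 2 fold thresholds. Python 3.11.15, numpy 2.4.6, pandas 2.3.3 and statsmodels 0.14.6 (loess span 0.3) were used, after the procedure was tested on simulated data. There, all probe sets of a changed gene shared the same large change, so the test does not cover genes whose probe sets disagree.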

Additional observations from a re-analysis of the deposited data

Results flagged for a closer look

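The hybridization controls, which the gene comparison does not use, carried a signal of their own. All 18 were higher on the double-siRNA array, with a median log2 ratio of 0.61 and a range from 0.40 to 0.71. Their part in the lower ratios of the remodelling genes was not tested, and all members would be lower still on their scale.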

How the results depend on the processing

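No paired analysis was possible because each group held 1 array. At 2-fold, 5 members were lower on the deposited scale, between 4 and 7 under the other settings at that threshold except the scale of the hybridization controls, where 24 were (27.7% of all genes), and 0 were higher under any setting at that threshold. The share of all genes lower in those settings ran from 6.51% to 12.7%, and with no filter on signal the members' 5 (11.4%) lay below that share (12.7%). At 1.5-fold, 18 were lower and 2 higher, and at 3-fold 4 were lower, beside 19.5%, 21.7% and 2.26% of all genes. With those controls level the median was -1.04 over all members, -1.07 for SWI/SNF, -0.80 for NuRD, -0.93 for the other CHD genes, -1.57 for ISWI and -1.20 for INO80/SRCAP/p400. Dividing each array by its median gave -0.52 over all members. The NuRD median was -0.37 after quantile normalization, -0.41 after loess and -0.36 by the mean of probe sets, which gave -0.56 for the other CHD genes and -0.74 for ISWI. Without _x_at and _s_at probe sets, which left 29 members, the medians were -0.20 over all members, -0.20 for SWI/SNF and -1.27 for ISWI. That ISWI median lies between 4 genes and near none of them. SMARCA5 was at -2.54, BAZ1B at -3.18 on the probe set reading 275 and 30.3, BPTF at -0.00 and SMARCA1 at 0.48. The cause of these shifts was not tested, beyond the smaller number of genes and the constant shift on the scale of the controls. SMARCA5, BAZ1A, BAZ1B and MBD2 were at least 2-fold lower under each alternative that measured them, and ARID1B under 8 of 9, the exception being the mean of probe sets (-0.77). Some alternatives could not change this outcome. Both filters left these ratios as they were, and the scale of the hybridization controls lowered every ratio. Without _x_at and _s_at probe sets ARID1B kept the same probe set (-1.73), as MBD2 did by the mean (-1.72). These tallies are therefore a weak check.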
